A study of Gallus gallus with 6 samples.

Results

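The genes described here encode proteins of the elastic fibre and its surroundings: the fibrillins FBN1 and FBN2, elastin (ELN), the microfibril-associated glycoproteins MFAP2 and MFAP5, the fibulins FBLN1, FBLN2, FBLN5 and EFEMP1 (fibulin-3), and dermatopontin (DPT). They were chosen by name, as rows with an Ensembl identifier whose gene name is one of these 10. Of the 10, 8 were listed in all 6 tables, among 24881 Ensembl rows in all. ELN and FBLN2 were not matched to a row by name and were not analysed here. RNA had been sequenced from primary skeletal muscle cells of chicken embryos, at passage 1, in 3 libraries of proliferating myoblasts and 3 of differentiated myotubes. Myoblasts are the mononucleated muscle precursors and were kept in RPMI-1640 with 15% fetal bovine serum; myotubes are the multinucleated cells that form by fusion, and were obtained in RPMI-1640 with 2% horse serum. The labels name no sort of these primary cells, so each library can hold other cells of the muscle besides the muscle cells themselves. The labels name neither the muscle, nor the embryos' age, nor the days in differentiation medium.

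An elastic fibre is built on a scaffold of microfibrils, long filaments of fibrillin decorated by the microfibril-associated glycoproteins. Fibulins bind fibrillin, elastin and basement membrane proteins, and some of them carry the crosslinking enzymes of the lysyl oxidase family to the growing fibre. Microfibrils also hold latent TGF-beta through the latent TGF-beta binding proteins. In skeletal muscle this matrix lies in the connective tissue around the fibres and is made largely by fibroblasts. Dermatopontin is a small matrix protein outside the elastic fibre proper, known to bind decorin and to promote the assembly of collagen fibrils.

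Of the 8 listed genes, 6 rose from myoblasts to myotubes and 2 fell. DPT, FBLN1 and FBN2 rose 89.3-fold, 13.1-fold and 11.2-fold, FBLN5 and MFAP2 rose 2.84-fold and 2.76-fold, and FBN1 rose 1.80-fold. EFEMP1 fell 4.97-fold and MFAP5 fell 3.49-fold. All 8 passed the filter on low values (a mean of at least 1 FPKM, fragments per kilobase of gene, scaled to library size, over the 6 libraries) and all 8 were called, with an adjusted p (edgeR quasi-likelihood, Benjamini-Hochberg over all tested genes) under 0.05. DPT and FBN2 averaged 0.835 and 0.636 FPKM in myoblasts and passed the filter only by their myotube level. A gene that passes in this way has to be higher in myotubes, so the direction of these genes adds nothing to the counts. A call was common in these libraries: of 12808 genes tested, 36.7% were called higher and 35.7% lower in myotubes, 72.5% in all. The libraries of both groups did not overlap in CPM for any of the 8, as they did not for 76.1% of all tested genes. On the TPM scale each library's FPKM are rescaled to a common sum. There a different test, limma on log2(TPM + 1), called 5865 genes higher and 3492 lower, against 4706 and 4577 in the edgeR fit. The median over all genes shifted by 0.17 on the log2 scale. The same limma test on log2(FPKM + 1) called 5076 higher and 4188 lower, with a shift of 0.058, so the scale and the test both differ from the edgeR fit. Changes of at least 2-fold were rarer, at 14.1% of tested genes called higher and 11.1% called lower, and 5 and 2 of the 8 genes changed by that much. The median log2 fold change of the 8 genes was 1.48, against 0.01 over all tested genes. Both this median and the 5 rises of at least 2-fold include DPT and FBN2, whose direction was set by the filter.

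Levels across libraries are given as CPM, counts per 1e6 reads on library sizes scaled by TMM, and levels across genes as the deposited FPKM. Total counts ranged from 16052542 to 20981337 in myoblast libraries and from 21893152 to 23519295 in myotube libraries. Whether replicate libraries stem from different embryos or dishes is not stated in the labels; the p-values then cover only the variation among these libraries, and it may be technical. In bulk RNA, fewer cells of a type and less RNA per cell cannot be told apart.

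**Figure D1:**
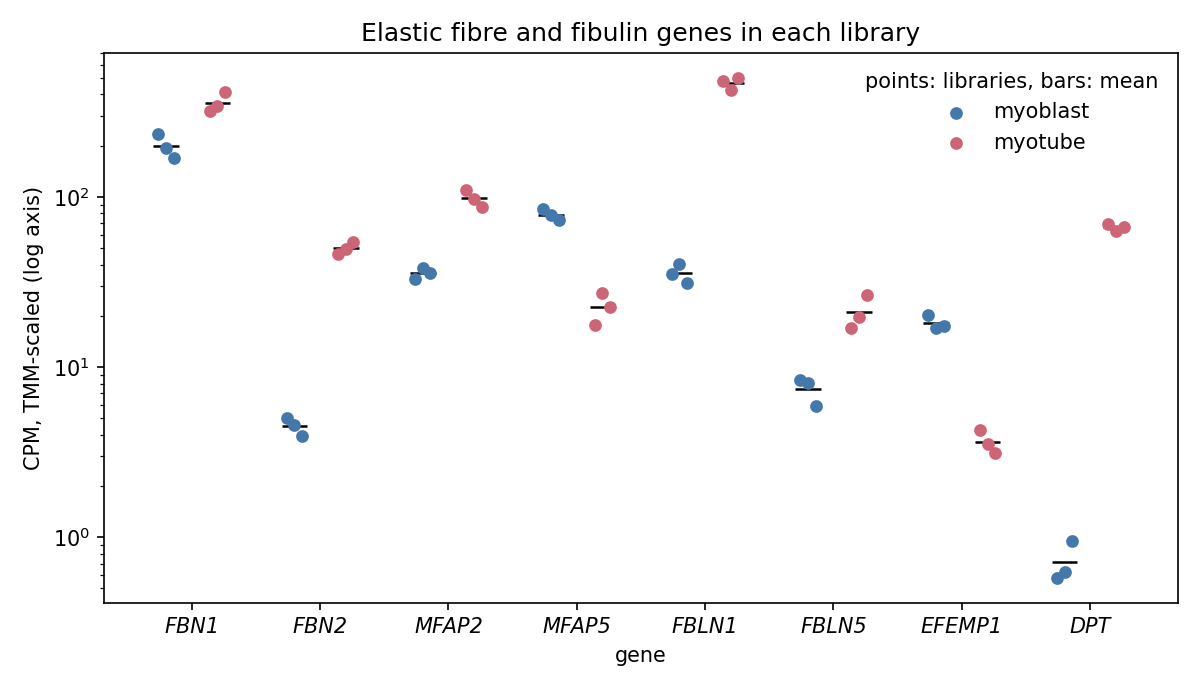
CPM of the 8 listed genes in each of the 6 libraries on a log axis, with 1 point per library and a bar at each group mean. In every gene the 3 myotube libraries lie wholly above or wholly below the 3 myoblast libraries; DPT has the widest gap and FBN1 the narrowest.

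The fibrillins form the backbone of the microfibril, and both rose. FBN1 (ENSGALG00000004960, chromosome 10, 10168070 to 10300782, minus strand, of a build the tables do not name) stood at 234, 194 and 170 CPM in the myoblast libraries and at 321, 340 and 415 CPM in the myotube libraries. The groups did not overlap, but they lay close, with the lowest myotube library 1.37-fold above the highest myoblast library. Its log2 fold change was 0.85 ± 0.12 (SE; edgeR quasi-likelihood adjusted p = 0.00013). FBN2, the fibrillin best known from developing tissues, stood at 5.01, 4.55 and 3.92 CPM in myoblasts and at 46.1, 49.4 and 54.5 CPM in myotubes (ENSGALG00000014686, chromosome Z, 56764456 to 56924146, minus strand). Every myotube library was at least 9.19-fold above every myoblast library, and the log2 fold change was 3.48 ± 0.11 (SE; edgeR quasi-likelihood adjusted p = 4.4e-09). FBN2 passed the filter on low values only by its myotube level, so the direction of its change was set by the filter.

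FBN1 remained the more abundant fibrillin per length in both groups. It measured 22.4 ± 3.87 FPKM in myoblasts and 42.0 ± 6.16 in myotubes (mean ± SD, n = 3), and FBN2 measured 0.636 ± 0.0844 and 7.39 ± 0.687 FPKM. As a share of the summed FPKM of both, FBN2 took 2.63, 2.88 and 2.83% in the myoblast libraries and 15.4, 15.5 and 14.2% in the myotube libraries. The FBN2 share was thus 5.41 times as high in myotubes, with no overlap between groups (exact permutation p = 0.1, two-sided, and no smaller p is possible with 3 against 3 libraries). It rests on the same rise of FBN2, whose direction was set by the filter, and is no separate support for it. FBN2 lies on a sex chromosome. Tested genes of chromosome Z had a median log2 fold change of -0.05 (575 genes) and 32.5% of them were called higher. Rows of chromosome W, which is carried by female birds, held between 0.0158 and 0.0173% of Ensembl counts in myoblast libraries and between 0.0399 and 0.0425% in myotube libraries, and the part of this difference in the level of FBN2 was not tested.

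The microfibril-associated glycoproteins, small proteins that bind fibrillin, moved in opposite directions. MFAP2 (MAGP-1; ENSGALG00000030647, chromosome 21, 4407476 to 4411229, minus strand) stood at 33.0, 38.0 and 35.9 CPM in myoblasts and at 110, 97.7 and 87.1 CPM in myotubes, a log2 fold change of 1.46 ± 0.10 (SE; edgeR quasi-likelihood adjusted p = 4.1e-07). Its listed span overlaps the end of ATP13A2 on the same strand, so reads in the overlap are uncertain. MFAP5 (MAGP-2; ENSGALG00000027471, chromosome 1, 75972581 to 75982809, minus strand), which also binds Notch ligands, stood at 85.2, 78.0 and 73.0 CPM in myoblasts and at 17.7, 27.4 and 22.5 CPM in myotubes. The log2 fold change was -1.80 ± 0.14 (SE; edgeR quasi-likelihood adjusted p = 1.3e-06). Neither gene's groups overlapped, and the myotube library lowest in MFAP5, replicate 1, was the highest in MFAP2.

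The balance between both glycoproteins therefore turned over. MFAP5 made up 83.7, 80.4 and 80.2% of their summed FPKM in the myoblast libraries and 24.2, 35.8 and 34.0% in the myotube libraries (exact permutation p = 0.1, two-sided, the smallest possible here). In myoblasts MFAP5 measured 166 ± 14.7 FPKM and MFAP2 measured 37.6 ± 2.50. In myotubes MFAP5 measured 49.6 ± 11.2 FPKM and MFAP2 measured 109 ± 11.6. This pair and the fibulin shares given next were compared after their values were seen.

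**Figure D2:**
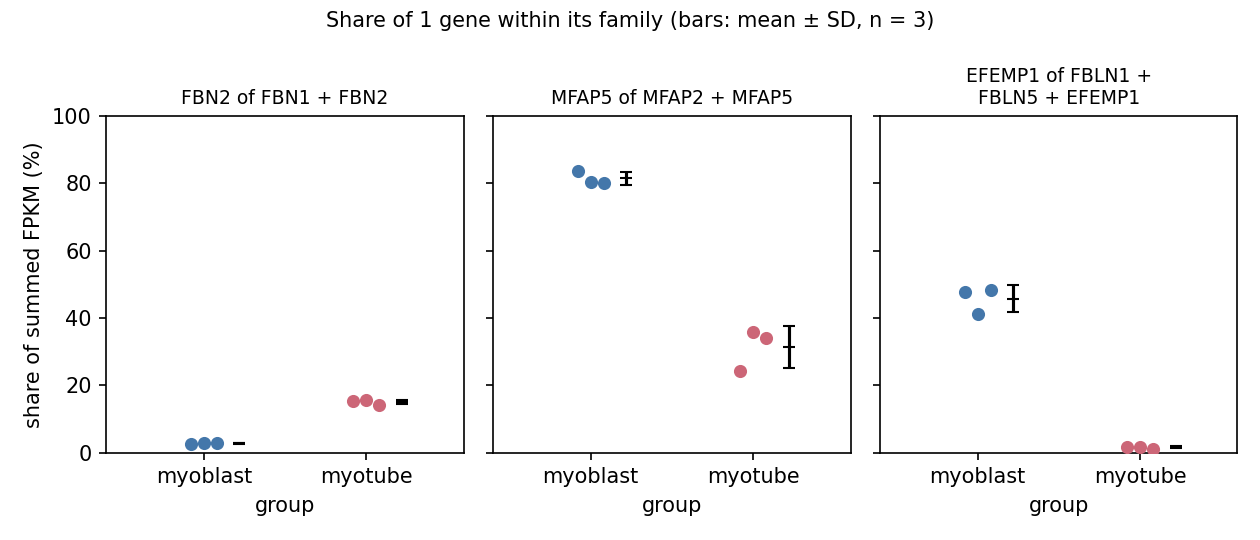
Share (%) of FBN2 in the summed FPKM of FBN1 and FBN2, of MFAP5 in that of MFAP2 and MFAP5, and of EFEMP1 in that of FBLN1, FBLN5 and EFEMP1, with 1 point per library and the mean ± SD beside the points. The mean share of FBN2 went from 2.78 to 15.0%, that of MFAP5 from 81.4 to 31.3% and that of EFEMP1 from 45.7 to 1.54%.

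Of the 3 listed fibulins described here, 2 rose and 1 fell; FBLN7, a further fibulin, is given with the pathway genes below. FBLN1, which binds fibronectin, nidogen and elastin, stood at 35.2, 40.5 and 31.2 CPM in the myoblast libraries and at 477, 423 and 500 CPM in the myotube libraries (ENSGALG00000014233, chromosome 1, 70545573 to 70627591, plus strand). Its lowest myotube library was 10.4-fold above its highest myoblast library. The log2 fold change was 3.72 ± 0.10 (SE; edgeR quasi-likelihood adjusted p = 1.6e-09), the rank 114 rise of 12808.

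FBLN5, which in mice is needed to assemble elastin onto microfibrils, was scarce in both groups. It stood at 8.42, 8.04 and 5.93 CPM in myoblasts and at 16.9, 19.7 and 26.6 CPM in myotubes, without overlap (ENSGALG00000010747, chromosome 5, 44523932 to 44565644, minus strand). It had the largest relative spread of the 8 genes among myotube libraries, with a coefficient of variation of 23.6%. The log2 fold change was 1.50 ± 0.19 (SE; edgeR quasi-likelihood adjusted p = 4.6e-05).

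EFEMP1, a fibulin that in mice contributes to elastic fibres of the fasciae, went the other way. It stood at 20.2, 17.0 and 17.4 CPM in myoblasts and at 4.29, 3.54 and 3.12 CPM in myotubes (ENSGALG00000037901, chromosome 3, 242964 to 294071, minus strand). Every myoblast library lay at least 3.96-fold above every myotube library, and the log2 fold change was -2.31 ± 0.14 (SE; edgeR quasi-likelihood adjusted p = 2.8e-07). Myoblasts thus held FBLN1 and EFEMP1 at like levels per length, 12.0 ± 1.64 and 12.9 ± 1.36 FPKM, with overlapping libraries. By CPM, which takes no account of length, FBLN1 was the higher in myoblasts, at a mean of 35.6 against 18.2 for EFEMP1. Myotubes held them at 164 ± 13.6 and 2.70 ± 0.409 FPKM. Of the summed FPKM of FBLN1, FBLN5 and EFEMP1, EFEMP1 took 47.8, 41.1 and 48.3% in the myoblast libraries and 1.78, 1.63 and 1.21% in the myotube libraries (exact permutation p = 0.1, two-sided, the smallest possible here).

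DPT was scarce in myoblasts and abundant in myotubes. It was counted 9, 10 and 19 times in the myoblast libraries, or 0.579, 0.623 and 0.955 CPM, and 1607, 1463 and 1471 times in the myotube libraries, or 69.0, 63.2 and 66.6 CPM (ENSGALG00000039376, chromosome 1, 83908116 to 83934219, plus strand). The lowest myotube library was 66.2-fold above the highest myoblast library. The log2 fold change was 6.48 ± 0.14 (SE; edgeR quasi-likelihood adjusted p = 4.8e-10), the rank 8 rise of 12808. Ordered by mean FPKM over all tested genes, DPT moved from the 3.22 percentile in myoblasts to the 90.0 percentile in myotubes, while FBLN1 moved from 48.2 to 95.7, FBN2 from 1.97 to 31.7 and EFEMP1 from 50.2 down to 13.6. DPT and FBN2 were under 1 FPKM in myoblasts and passed the filter on low values only by their myotube level. Genes under the filter were not ranked, so the low myoblast percentiles of DPT and FBN2 follow in part from the filter. DPT, FBLN1 and MFAP5 share chromosome 1 within 13.39 Mb, and MFAP5, which lies between the others, fell while they rose.

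The order of the genes by level per length differed between the groups. In myoblasts it ran from MFAP5 (166 FPKM) through MFAP2 (37.6), FBN1 (22.4), EFEMP1 (12.9), FBLN1 (12.0), FBLN5 (3.38) and DPT (0.835) to FBN2 (0.636 FPKM). Libraries of neighbours in that order overlapped for EFEMP1 with FBLN1 and for DPT with FBN2. In myotubes it ran from FBLN1 (164 FPKM) through MFAP2 (109), DPT (80.6), MFAP5 (49.6), FBN1 (42.0), FBLN5 (9.96) and FBN2 (7.39) to EFEMP1 (2.70 FPKM). There the neighbours MFAP5 and FBN1 overlapped, as did FBLN5 and FBN2. The deposited FPKM implies a shorter length than the table lists for 3 genes, 2852 against 3345 bases for FBLN1, 2123 against 2458 for FBLN5 and 6790 against 7629 for FBN2. With the listed lengths the order was the same in both groups, but the myoblast overlaps of EFEMP1 with FBLN1 and of DPT with FBN2 were gone.

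Together the 8 genes summed to 274, 257 and 235 FPKM in the myoblast libraries and to 461, 456 and 477 FPKM in the myotube libraries, 1.82 times as much on average (2.86 times as summed CPM, in which long genes weigh more; exact permutation p = 0.1, two-sided, the smallest possible here). MFAP5 alone supplied 64.9% ± 1.03 of the myoblast sum (mean ± SD, n = 3) and 10.7% ± 2.51 of the myotube sum. FBLN1 supplied 4.69% ± 0.532 and 35.3% ± 2.20, and DPT 0.332% ± 0.118 and 17.3% ± 0.534. Without MFAP5, a sum formed after the values were seen, it went from 89.7 ± 5.69 to 415 ± 17.1 FPKM, a ratio of 4.63. Leaving out a gene that fell has to raise the ratio. DPT and FBN2, whose direction was set by the filter, are part of both sums. The share of MFAP5 and its first place in myoblasts rest on its listed length of 456 bases, the shortest of the 8 genes. By CPM, which takes no account of length, FBN1 was the highest in myoblasts, at a mean of 199 against 78.8 for MFAP5.

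**Figure D3:**
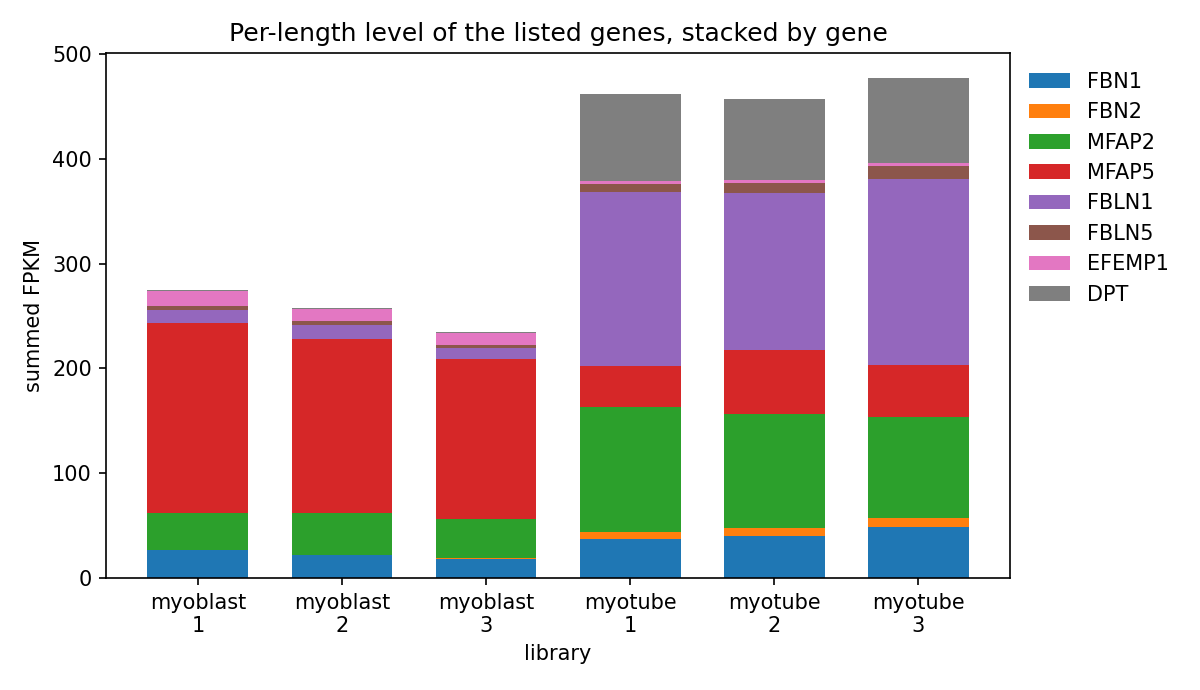
Deposited FPKM of the 8 listed genes stacked for each of the 6 libraries. MFAP5 fills most of each myoblast bar, and FBLN1, MFAP2 and DPT fill most of each myotube bar; the bars reach 235 to 274 FPKM in myoblasts and 456 to 477 FPKM in myotubes.

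Markers of other cell types moved between the groups as well, and their counts stand beside 36.7% of all tested genes called higher and 35.7% called lower. Of 10 tested fibroblast markers 8 rose and 1 fell. The 11 matched ones summed to 5740 to 5850 CPM in myoblast libraries and to 11100 to 12800 CPM in myotube libraries. The mean sum was 2.07 times as high in myotubes. COL1A2, which went from 2180 ± 17.6 to 6470 ± 452 CPM, gave the largest part of this rise. Fibroblasts are a main source of the proteins described here. The single markers that rose did so by between 1.43-fold (COL3A1) and 6.05-fold (PDGFRA), THY1 was not called, and DPP4 fell 1.90-fold. This range covers only the markers that rose, and its relation to the changes of the listed genes was not tested. COL1A2, COL3A1 and DCN are both fibroblast markers here and members of a pathway list below. Of 5 tested tendon markers 4 rose and 1 fell, with a matched sum of 24.1 to 26.8 CPM in myoblasts and 62.3 to 65.2 CPM in myotubes. TNMD, which rose, passed the filter only by its myotube level, and THBS4, which fell, only by its myoblast level. The direction of both therefore adds nothing to the tendon counts. Of 6 tested smooth muscle markers 4 rose and 2 fell, with a sum of 845 to 862 CPM and then 4020 to 4520 CPM, most of it ACTA2. The 2 tested endothelial markers, EGFL7 and CLDN5, rose, a count that changed in 4 of 18 alternative settings. The matched sum was 38.8 to 42.3 CPM and then 46.4 to 58.9 CPM, most of it CLDN5. CDH5, KDR, TEK and VWF lay under the filter, with means under 1 CPM in both groups. Of these, CDH5 was higher in myotubes and KDR, TEK and VWF were lower. Blood and macrophage markers fell in 7 of 8 cases, from a sum of 958 to 1020 CPM to one of 260 to 275 CPM, and cartilage markers summed to 13.6 to 17.7 CPM and then to 3.69 to 4.54 CPM, with the 1 tested marker lower. Skeletal muscle markers were present in every library, with a sum of 1630 to 1730 CPM in myoblasts and 1880 to 1980 CPM in myotubes (6 higher and 3 lower of 9). No matched marker of these lists was at 0 in all libraries, and the part of any of these cell types in the changes of the elastic fibre genes was not tested.

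Other genes of the elastic fibre pathway moved in both directions. In 6 lists of 69 genes, 44 were matched to a single row by name, and 38 of these passed the filter. Of the 38, 19 (50.0%) were called higher and 14 (36.8%) lower in myotubes, against 36.7% and 35.7% of all tested genes. The share called lower was thus near the background. Because the lists were chosen with earlier results of these data known, the share called higher cannot be read as an excess. The same background stands behind the counts of the single lists, which hold 3 to 9 tested genes each. The median log2 fold change of the 38 was 0.20, against 0.01 over all tested genes. The 19 and this median include ADAMTS17, which passed the filter only by its myotube level, so its direction was set by the filter. Of 3 tested relatives of the fibulins and fibrillins, 2 fell and 1 was not called. LTBP2, a latent TGF-beta binding protein, fell 2.98-fold from 384 ± 15.7 to 129 ± 24.3 CPM, and FBLN7, named after its values were seen, fell 2.75-fold from 25.5 ± 1.08 to 9.27 ± 0.243 CPM. LTBP1 stood at 596 ± 31.5 and 583 ± 17.9 CPM and was not called. It was called higher by quantile normalization, and it overlaps an unnamed gene on the opposite strand.

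Of the enzymes that crosslink the matrix, 1 of 3 tested rose. LOXL2, a lysyl oxidase family member, rose 2.01-fold from 131 ± 13.0 to 262 ± 16.5 CPM. TGM2, a transglutaminase, fell 1.51-fold from 38.5 ± 3.24 CPM. LOX itself, the main crosslinker of elastin and collagen, was called lower by a narrow margin (edgeR quasi-likelihood adjusted p = 0.049), with a log2 fold change of -0.19. Its call was lost in 11 of 18 alternative settings, and its sign turned in 1 more, with adjusted p over all 18 between 0.007 and 0.99.

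Microfibril-associated genes rose in 8 of 9 tested cases. VCAN, the proteoglycan versican, which binds fibrillin and fibulins, rose 6.73-fold from 384 ± 38.6 to 2580 ± 216 CPM. FURIN, a protease that processes profibrillin, was the member that fell, by 1.58-fold to 93.5 ± 9.10 CPM; its span overlaps other genes on both strands, so its count is uncertain. The ADAMTS and ADAMTS-like proteins, several of which bind fibrillin, gave 5 of the rises, and ADAMTSL3 and ADAMTS17 rose 5.44-fold and 5.06-fold, examples chosen after their values were seen. ADAMTS17 averaged 0.865 FPKM in myoblasts and passed the filter only by its myotube level, so its direction adds nothing to these counts. ADAMTS17 overlaps an unnamed gene on the opposite strand, and so does MMP2, described next. MMRN1 was at 0 counts in every library.

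Of 6 tested receptor genes 3 rose and 1 fell. ITGAV, an integrin subunit that binds fibrillin and fibulin-5, rose 1.84-fold to 377 ± 35.2 CPM, with an overlapping unnamed gene on the same strand, and its partner ITGB5 fell 1.56-fold to 199 ± 2.40 CPM. Elastin-degrading proteases and their inhibitors fell in 5 of 8 tested cases and rose in 2. Of the proteases, MMP7, MMP9, CTSK and CTSS fell and MMP2 rose. CTSK and CTSS overlap PRPF3 on the same strand, so their counts are uncertain. Of the inhibitors, TIMP3 fell, TIMP2 rose and TIMP4 was not called. The summed CPM of this mixed list was 1.7 times as high in myotubes, at 4930 to 5150 against 2930 to 2970 CPM. MMP2 made up most of the myotube sum, so the rise of the sum rests on MMP2 and not on the list. MMP2 rose 5.84-fold from 639 ± 8.53 to 3730 ± 70.3 CPM, and MMP9, the other gelatinase, fell 3.56-fold from 54.3 ± 3.43 to 15.2 ± 1.85 CPM. Among partners of dermatopontin and the fibulins 5 rose and 3 fell of 9. COL15A1, a collagen of the basement membrane zone, rose 7.92-fold to 53.7 ± 6.94 CPM, and TGFB1, which dermatopontin binds, fell 3.41-fold from 750 ± 53.6 to 220 ± 42.3 CPM. DCN, which encodes decorin, rose 2.15-fold, an example chosen after its values were seen.

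**Figure D4:**
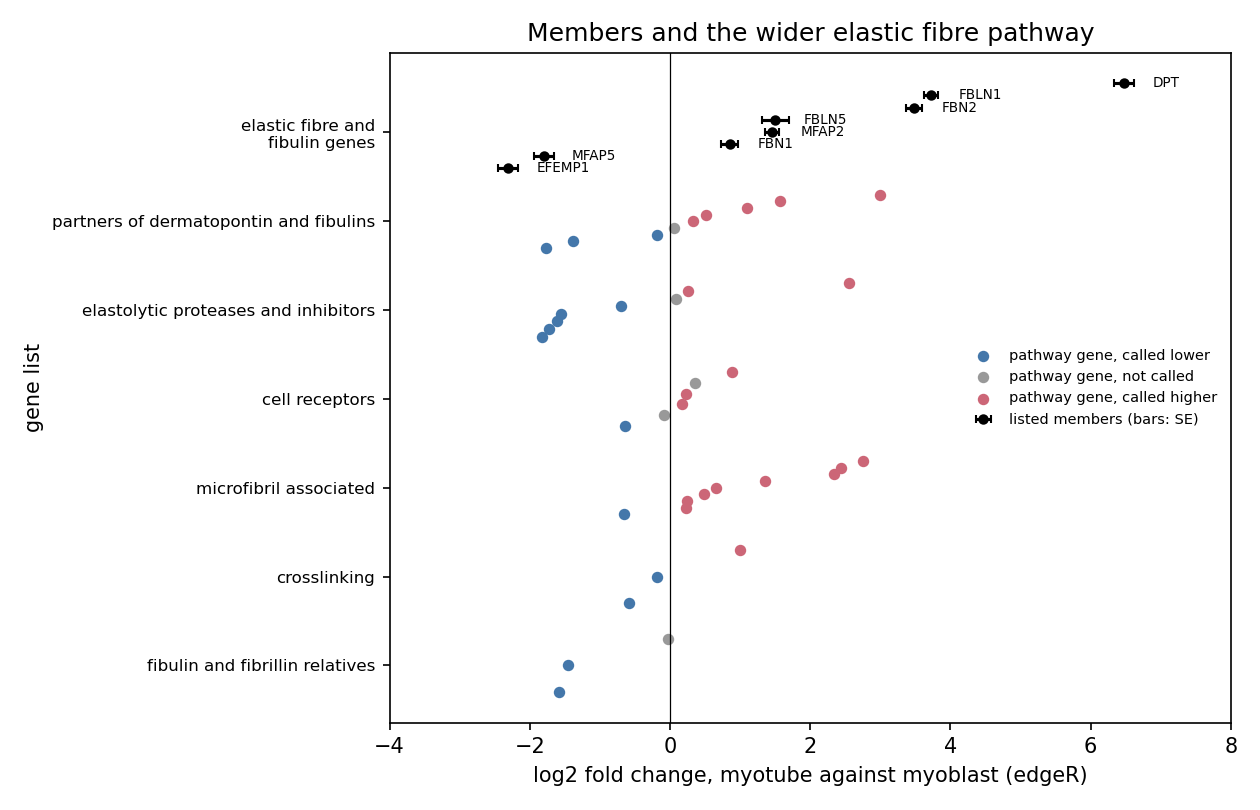
Fitted log2 fold change (myotube against myoblast) of the 8 listed genes, with SE bars, and of the 38 tested pathway genes in 6 lists, coloured by call. The listed genes span from -2.31 for EFEMP1 to 6.48 for DPT, and the pathway genes from -1.83 for MMP9 to 2.99 for COL15A1.

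The genes most like DPT and EFEMP1 across the 6 libraries were found by the root mean square distance between log2 CPM values centred on each gene's mean, with a prior count of 2, over 8698 other tested genes with a symbol. For DPT they were SPON2 (distance 0.371), which encodes a secreted matrix protein, KCNF1 (0.437) and BRN3 (0.467). SPON2 went from 1.76 ± 0.328 to 139 ± 23.0 CPM. KCNF1 and BRN3 had 0 counts in all myoblast libraries and reached 4.90 ± 0.813 and 5.11 ± 1.61 CPM in myotubes. Their distance to DPT depends on the prior count, which sets their value in myoblasts, so their place beside DPT is uncertain. For EFEMP1 they were PDGF-A (0.0763), a growth factor of mesenchymal cells, UBE2S (0.0817), a ubiquitin-conjugating enzyme of mitosis, and SFR1 (0.105), a recombination factor. PDGF-A went from 59.7 ± 4.74 to 13.2 ± 1.76 CPM, a 4.53-fold fall next to the 4.97-fold fall of EFEMP1.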

How the data were processed

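Each of 6 libraries came with a table of a raw read count and an FPKM per gene, both made by the authors, per the file headers. HISAT and HTSeq are named in the submitters' processing notes, with no version; build and strand setting: not given in the sources used here. Loci without an Ensembl identifier (1.66 to 2.12% of counts) and 2 rows of annotation text in each myotube table (0% of counts) were left out. Counts of genes with a mean of at least 1 FPKM over the 6 libraries were tested with edgeR 4.0.16 (R 4.3.3; TMM, quasi-likelihood F-test, two-sided, Benjamini-Hochberg over all 12808 tested genes, threshold 0.05). Standard errors were derived from the F statistic. Library sizes of CPM are totals of Ensembl rows times TMM factors. The test was run first on simulated data. Alternatives used DESeq2 1.42.0, limma 3.58.1, other scalings, filters and pseudocounts, the replicate number as a block, a threshold of 0.01 and leaving out each library.

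The members and lists were chosen with earlier results of these data known. Genes named are every member, the called pathway gene with the largest rise and the largest fall in each list, and the 3 genes nearest in pattern to the member with the largest rise and to that with the largest fall; others, LTBP1 and LOX included, were named after their values were seen. Lists were matched by gene name alone, 44 of 69 pathway genes. Members held 38 to 10142 counts over the myoblast libraries and 251 to 31930 over the myotube libraries.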

Additional observations from a re-analysis of the deposited data

How the results depend on the processing

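In all 18 alternative settings 6 of the 8 genes were called higher and 2 lower, each in its own direction. DPT and FBN2 are among the 6, and wherever the filter of 1 FPKM was kept it set their direction. Over all genes, 3982 of 12808 were called higher and 3924 lower at a threshold of 0.01. With limma on log2(TPM + 1) these were 5865 and 3492 of 12808, and with no filter 5560 and 5001 of 20031. Over these settings the log2 fold change lay between 5.47 and 6.77 for DPT, 2.15 and 3.57 for FBN2, 3.62 and 3.82 for FBLN1, 1.11 and 1.63 for FBLN5, 1.37 and 1.64 for MFAP2, 0.73 and 1.01 for FBN1, -2.45 and -1.89 for EFEMP1, and -1.97 and -1.56 for MFAP5. The lowest values of FBN2 and DPT came from quantile-normalized log2(FPKM + 1); without quantile normalization, log2(FPKM + 1) gave 2.36 and 5.48, and log2(FPKM + 0.1) gave 3.35 and 6.46. Leaving out 1 library at a time gave 81.6-fold to 109-fold for DPT and 1.66-fold to 1.97-fold for FBN1. By quantile normalization the log2 fold change turned to 0.31 for LTBP1 (limma adjusted p = 0.0034), 0.15 for LOX and 0.04 for NID2, and the cause was not tested. The pathway genes called numbered 17 to 21 higher and 12 to 15 lower, and the looser filters admitted more of these genes to the test. Deviations of same-numbered libraries from their group means had correlations of -0.0474, 0.114 and -0.177. Those of unlike-numbered libraries lay between -0.157 and 0.202. With 3 libraries a group these values cannot tell whether the numbers pair the samples. With the replicate block 6 of the 8 genes were called higher and 2 lower, as without it, beside 4447 and 4337 of all 12808 tested genes. The call of LOX was lost there (edgeR adjusted p = 0.078). Depth limits DPT in myoblasts, at 9 to 19 reads a library.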

Other observations

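HMCN1, which encodes hemicentin-1 (fibulin-6), lay under the filter on low values, and was singled out after its values were seen. It stood at 1.35, 1.25 and 0.955 CPM in myoblast libraries and at 6.36, 11.1 and 13.5 CPM in myotube libraries. Fitted with no filter it was 8.76-fold higher in myotubes (edgeR quasi-likelihood adjusted p = 2.1e-07), a direction it shares with FBLN1 and FBLN5 and not with FBLN7 or EFEMP1. MFAP3L, also under the filter, was 3.94-fold lower in the same fit (edgeR quasi-likelihood adjusted p = 0.00014), from 102 counts over the myoblast libraries to 34 over the myotube libraries.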
